A study of Mus musculus with 8 samples.

Results

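The S100 calcium-binding genes S100a4, S100a6, S100a8, S100a9, S100a10, S100a11 and S100a13 were examined in sorted mouse blood monocytes (MCs). They were taken by symbol, and all 7 were found among the 16486 genes of the deposited expression values. RNA-Seq was analysed for 8 libraries. Control (CT) mice gave 2 libraries of Ly6C-high and 2 of Ly6C-low MCs, and the T1DM and T2DM models each gave 1 library of Ly6C-high and 1 of Ly6C-low MCs. CT mice were C57/BL6, T1DM mice were C57/BL6 injected with streptozotocin (STZ, which kills pancreatic beta cells) at 50 mg/kg daily for 5 days from week 8, and T2DM mice were db/db, homozygous for a mutant leptin receptor and obese. All mice ate normal chow and gave blood at 20 to 22 weeks of age. MCs were sorted as CD11b+ Ly6G- cells with high or low Ly6C, and material of 5 mice was pooled per group, so the CT replicates measure the spread between libraries of a pool, which may be technical, and not the spread between mice. The NextSeq 500 read every CT library and the HiSeq 4000 every diabetic one, so effects of the instrument and of diabetes cannot be told apart between CT and diabetic MCs.

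S100 proteins are small EF-hand proteins, most of which change shape when they bind calcium and then dock onto partner proteins such as annexins and myosin. Several of them leave stressed or activated cells and act as alarmins, danger signals read by Toll-like receptor 4 (TLR4), RAGE and other receptors. S100A8 and S100A9 pair up as calprotectin, a major cytoplasmic protein of neutrophils and a product of classical monocytes, while S100A4, S100A6, S100A10 and S100A11 are made by many cell types. Ly6C-high MCs are the classical, inflammatory subset that enters injured tissue, and Ly6C-low MCs patrol the vessel wall.

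In the RefSeq annotation of GRCm38.p6 all 7 genes lie on chromosome 3, in 2 groups. S100a13, S100a4, S100a6, S100a8 and S100a9 lie within 181489 bases, and S100a11 and S100a10 lie within 44150 bases, 2824774 bases further on. RefSeq promoter windows matched 6 of the 7 members, and S100a10 was not matched. The 250 bases before the start are shown for S100a4, which had the largest called subset difference among the members, and for the calprotectin genes S100a8 and S100a9, whose values ranged most widely over the libraries. They lie at chr3:90603520-90603769 on the plus strand, chr3:90668821-90669070 on the plus strand and chr3:90695722-90695971 on the minus strand, and read 5' to 3' toward the gene. Capitals mark matches to the motif letters searched.
S100a4: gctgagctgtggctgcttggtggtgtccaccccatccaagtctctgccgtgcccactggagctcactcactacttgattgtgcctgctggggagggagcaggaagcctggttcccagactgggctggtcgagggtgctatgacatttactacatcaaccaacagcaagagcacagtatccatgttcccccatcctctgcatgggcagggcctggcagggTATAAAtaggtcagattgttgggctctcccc
S100a8: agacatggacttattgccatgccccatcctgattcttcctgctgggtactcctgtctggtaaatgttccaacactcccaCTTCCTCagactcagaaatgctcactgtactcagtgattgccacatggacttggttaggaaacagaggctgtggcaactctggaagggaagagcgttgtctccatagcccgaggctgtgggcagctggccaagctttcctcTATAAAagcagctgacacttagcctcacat
S100a9: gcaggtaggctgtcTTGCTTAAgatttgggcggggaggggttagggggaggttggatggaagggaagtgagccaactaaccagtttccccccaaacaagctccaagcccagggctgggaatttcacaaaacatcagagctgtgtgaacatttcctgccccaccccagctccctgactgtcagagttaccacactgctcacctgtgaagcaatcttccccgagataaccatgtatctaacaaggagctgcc
Both strands were searched for the C/EBP letters TTGCNNAA, the PU.1 letters GAGGAAG and the TATA box letters TATAAA. The S100a4 window held TATAAA 31 to 26 bases before the start, and the S100a8 window held it at 30 to 25 bases. The S100a8 window also held the PU.1 letters on the opposite strand, 171 to 165 bases before the start, and the S100a9 window held the C/EBP letters at 236 to 229 bases. No match was found in the windows of S100a6, S100a11 and S100a13. Among 32851 RefSeq promoter windows of the same length, 9.56% held the C/EBP letters, 10.6% the PU.1 letters and 12.4% the TATA letters, and a match describes these letters only.

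The values are the deposited log2 expression values, between -4.05 and 15.64 over all genes. They hold no counts, so the depth behind a value is unknown, and whether they were divided by transcript length is not given in the sources used here, so levels were compared between libraries and not between genes. The spread between CT replicates depended on the level. For genes between 0 and 3 on the log2 scale the CT Ly6C-high replicates differed by a median of 0.49, with a 90th percentile of 1.42, and for genes between 6 and 10 by a median of 0.11. Markers followed the sort labels. Ly6c2, which encodes Ly6C2, read 8.56 to 8.72 in the 4 Ly6C-high libraries and 2.69 to 4.07 in the 4 Ly6C-low libraries. The linear values of 6 monocyte markers summed to 38090 to 55860 in Ly6C-high and to 8586 to 9772 in Ly6C-low libraries. These sums came mostly from Lyz2, whose Ly6C-high minus Ly6C-low log2 difference was 2.60 (limma estimate over 8 libraries). The other monocyte markers differed less, from 0.59 (Adgre1) to 1.24 (Ctss), so the sums overstate their difference. The linear values of 8 B-cell markers summed to 300.4 to 668.3 in Ly6C-high and to 5310 to 6358 in Ly6C-low libraries. B-cell RNA thus moved with every Ly6C-high to Ly6C-low difference below, and its part in those differences was not tested. In such bulk samples, fewer cells of a type and less RNA per cell cannot be told apart.

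**Figure D1:**
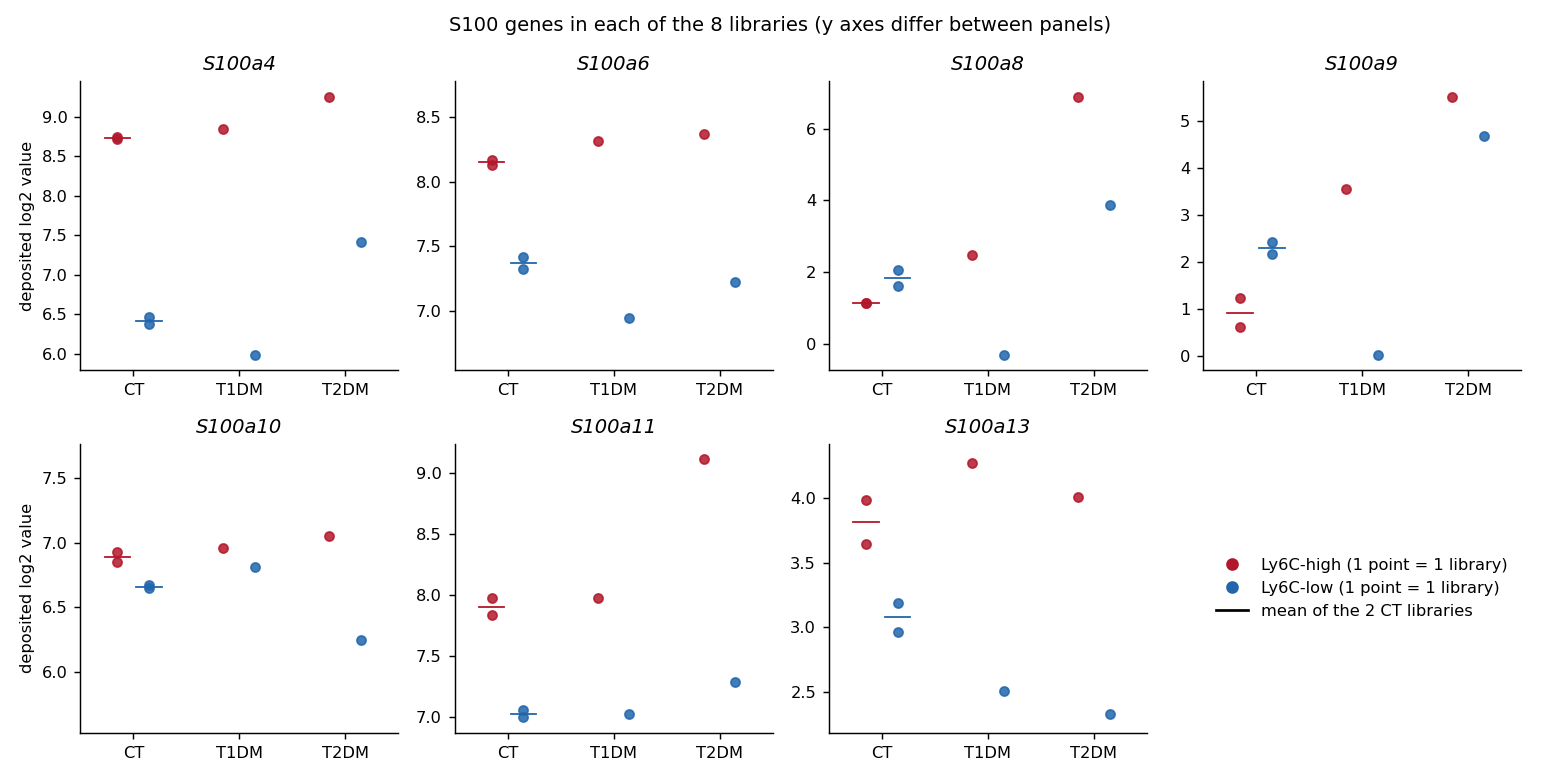
Deposited log2 values (y axis, scaled separately for each gene) of the 7 S100 genes in CT, T1DM and T2DM mice (x axis), with 1 point per library, red for Ly6C-high and blue for Ly6C-low MCs, and a line at the mean of the 2 CT libraries of a subset. For S100a4, S100a6, S100a10, S100a11 and S100a13 all 4 red points lie above all 4 blue points, and for S100a8 and S100a9 the colours overlap, with the highest points in T2DM at 6.90 and 5.52.

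The question of the first comparison was which S100 genes separated the MC subsets in CT mice. Of the 7 members, only S100a4 passed the study's criteria for a differentially expressed gene (DEG), a limma adjusted p-value under 0.01 and a change above 2-fold, and it was higher in Ly6C-high MCs. Over all genes, 2.1% were called higher and 1.43% lower in this test. S100a4, also called metastasin, binds non-muscle myosin and is linked to cell motility. In CT mice its Ly6C-high libraries read 8.72 and 8.74 and its Ly6C-low libraries 6.38 and 6.47, or 8.73 ± 0.02 against 6.42 ± 0.06 (SD, n = 2 each). The pairs did not overlap, and their gap was far wider than the 0.09 between the Ly6C-low replicates. The log2FC was 2.31 with a standard error (SE) of 0.06 and an adjusted p of 0.00277 (limma). Leaving out any 1 of the 4 libraries ended the call, with adjusted p between 0.0633 and 0.0847, as it did for every other gene called in CT mice.

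S100a6 and S100a11 also had both CT Ly6C-high values above both Ly6C-low values, by less than 2-fold. S100a6, or calcyclin, which binds annexins and the ubiquitin-ligase adaptor CacyBP, read 8.13 and 8.17 against 7.32 and 7.42, a log2FC of 0.78 (SE 0.06, limma adjusted p 0.00879). S100a11, a partner of annexin A1, read 7.83 and 7.97 against 6.99 and 7.06, a log2FC of 0.88 (SE 0.08, adjusted p 0.0105). The fold, and for S100a11 also the p-value, kept these genes from the call.

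S100a10, S100a13 and the calprotectin genes did not pass the limit on p. S100a10 (p11), the partner of annexin A2 at the cell membrane, read 6.93 and 6.85 against 6.67 and 6.65, a log2FC of 0.23 (adjusted p 0.0991) that turned to -0.06 when each library was scaled to the same linear sum. S100a13, a carrier in the unconventional release of FGF1, read 3.65 and 3.98 against 3.19 and 2.97 (log2FC 0.74, adjusted p 0.0996).

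The 2 calprotectin genes pointed the other way in CT mice. S100a8 read 1.14 and 1.15 in Ly6C-high and 1.61 and 2.07 in Ly6C-low MCs, a log2FC of -0.70 (SE 0.29, limma adjusted p 0.179). S100a9 read 0.62 and 1.23 against 2.44 and 2.19, a log2FC of -1.39 (SE 0.34, adjusted p 0.0702). In both genes the lowest Ly6C-low value stood above the highest Ly6C-high value. At this level the CT Ly6C-high replicates of other genes differed by a median of 0.49, with a 90th percentile of 1.42. That gap was near the median for S100a8 and between the median and the 90th percentile for S100a9. Over the 7 members the median log2FC was 0.74, against -0.09 over all genes. That median of all genes was -0.37 when libraries were scaled to the same linear sum, a scaling that also turned the 346 higher and 235 lower calls of the CT test into 207 and 360.

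The pooled comparison asked the same of all 8 libraries, with mouse group as a covariate, so that each diabetic library was set against the other subset of its own model and sequencer. S100a4, S100a6, S100a11 and S100a13 rose in Ly6C-high MCs, 4 of the 7 members, where 5.37% of all genes were called higher and 6.76% lower. For S100a4 the pooled log2FC was 2.33 (SE 0.14, limma adjusted p 8.23e-06), and for S100a13 it was 1.23 (SE 0.25, adjusted p 0.00567). The values were 1.14 for S100a11 (SE 0.16, adjusted p 0.000691) and 1.02 for S100a6 (SE 0.11, adjusted p 0.000208). These 4 genes and S100a10, with a log2FC of 0.35 (adjusted p 0.0561), had every Ly6C-high library above every Ly6C-low library, an order that 16.4% of all genes showed. S100a8 and S100a9 did not pass, at 1.10 (SE 0.66, adjusted p 0.234) and 0.40 (SE 0.73, adjusted p 0.715), with the widest SE of the 7 members. The members' median was 1.10, against -0.08 over all genes.

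S100a4 was called in all 13 alternative analyses of the pooled test. S100a6 and S100a11 each lost the call in 4 and S100a13 in 7 of them. Without the T2DM libraries S100a4 alone was called, since the log2FC of S100a6 and S100a11 dropped to 0.97 and 0.90 and the adjusted p of S100a13 rose to 0.0267. Without the T1DM libraries S100a4 and S100a11 were called, and S100a6 was at 0.90. Without CT Ly6C-high replicate 2 or CT Ly6C-low replicate 2, S100a13 was not called.

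**Figure D2:**
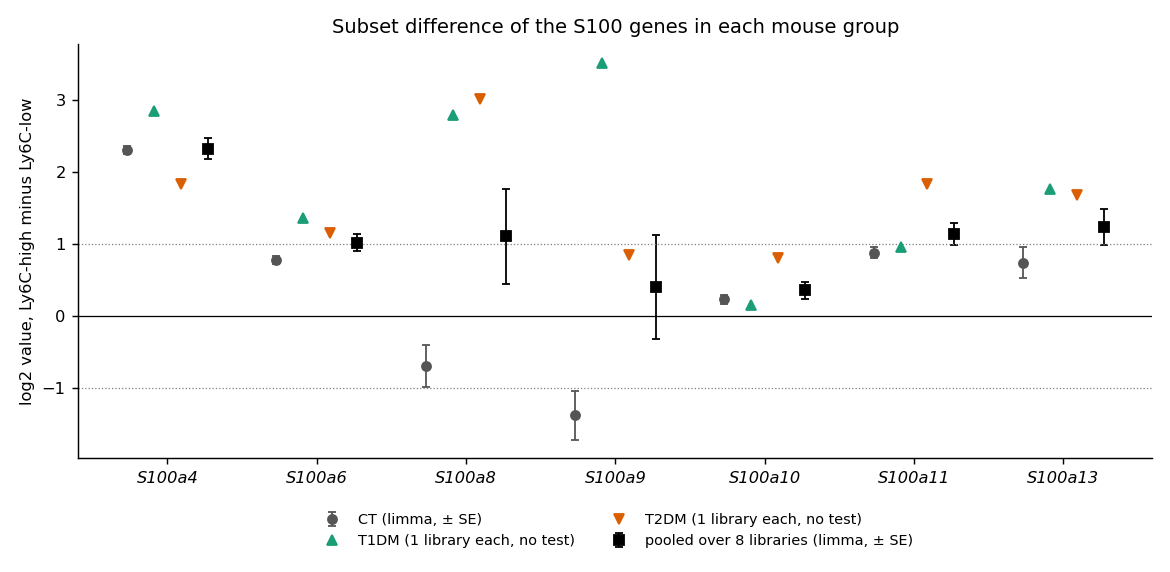
Ly6C-high minus Ly6C-low log2 difference (y axis) of each S100 gene (x axis) for CT mice (grey circles, limma estimate ± SE), for T1DM (green triangles) and T2DM mice (orange triangles) with 1 library per subset and no test, and pooled over 8 libraries (black squares, limma estimate ± SE), with dotted lines at 2-fold. S100a4 is above 2-fold in every estimate, from 1.84 to 2.85, and S100a8 and S100a9 are below 0 in CT and above 0 in both diabetic models.

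Within each diabetic model the subsets had 1 library each, so their differences are given without a test. In T1DM, 5 members were past 2-fold higher in Ly6C-high MCs, beside 11% of all genes. They were S100a9 (log2 difference 3.52), S100a4 (2.85), S100a8 (2.79), S100a13 (1.76) and S100a6 (1.37). In T2DM also 5 members were past 2-fold higher, beside 11.3% of all genes. These were S100a8 (3.02), S100a4 (1.84), S100a11 (1.83), S100a13 (1.68) and S100a6 (1.15), while S100a9 was at 0.84 and S100a10 at 0.80. S100a8 and S100a9 thus read higher in Ly6C-low MCs of CT mice and higher in Ly6C-high MCs of both models. For both genes, both CT Ly6C-high libraries lay below both CT Ly6C-low libraries. With that stricter order in CT mice, 3.32% of all genes showed the pattern, and the share with the signs alone was not counted. The test of whether the subset difference itself differed between diabetic and CT mice called no member and no gene (0.0%), although 6.58% of all genes had an unadjusted p under 0.05. For S100a8 the difference of differences was 3.60 (SE 2.26, limma adjusted p 0.854), and for S100a9 it was 3.57 (SE 1.90, adjusted p 0.826). S100a13, at 0.99 (SE 0.39, adjusted p 0.742), and S100a6, at 0.48 (SE 0.18, adjusted p 0.728), were the members with an unadjusted p under 0.05.

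The next comparisons asked how T1DM and T2DM changed the S100 genes within a subset. The widest differences were those of S100a8 and S100a9 in T2DM Ly6C-high MCs, and in T2DM both genes read above both CT libraries in each subset. Taking T1DM and T2DM together, limma called no gene in Ly6C-high MCs and none in Ly6C-low MCs (0.0% each), where 4.48% and 2.97% of all genes had an unadjusted p under 0.05. The 2 diabetic libraries of a subset come from different models, and their distance from each other entered the error of this test. Averaged over both subsets, diabetic minus CT values had an SD of 0.272 over all genes. Whether the deposited values were adjusted between CT and diabetic libraries is not given, so the lack of calls does not show that no gene differed.

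In Ly6C-high MCs, S100a8 read 6.90 in T2DM and 2.49 in T1DM, above the 1.14 and 1.15 of CT. Against the CT mean the T2DM library was 5.76 higher on the log2 scale, or 54.1-fold, and the T1DM library 1.34 higher. S100a9 read 5.52 in T2DM and 3.55 in T1DM, above the 0.62 and 1.23 of CT, and was 4.60 (24.2-fold) and 2.63 higher. The 1.34 of S100a8 in T1DM lay under the 90th percentile of 1.42 for CT Ly6C-high replicate differences at this level, and the other 3 differences lay above it. For diabetic against CT Ly6C-high MCs the limma estimates were 3.55 for S100a8 (SE 1.60, adjusted p 0.999) and 3.61 for S100a9 (SE 1.34, unadjusted p 0.029, adjusted p 0.999).

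S100a11 was the third member past 2-fold in the T2DM Ly6C-high library, at 9.12 against 7.83 and 7.97 in CT, a difference of 1.21 or 2.32-fold. Its T1DM value, 7.97, lay at the upper CT library. In T2DM 3 of 7 members were thus past 2-fold higher beside 5.96% of all genes, and in T1DM 2 of 7 beside 5.11%. All 7 members read above both CT Ly6C-high libraries in T1DM, as 36.3% of all genes did, and all 7 in T2DM, as 38.4% did, and these comparisons share their CT libraries. The smaller differences ran from 0.07 (S100a10 and S100a11) to 0.46 (S100a13) in T1DM and from 0.16 (S100a10) to 0.52 (S100a4) in T2DM.

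In Ly6C-low MCs the models parted. S100a8 read 3.88 in T2DM and -0.30 in T1DM, with CT at 1.61 and 2.07 between them. S100a9 read 4.68 in T2DM and 0.04 in T1DM, with CT at 2.44 and 2.19. Against the CT mean, T2DM was higher by 2.04 for S100a8 and 2.37 for S100a9, and T1DM was at -2.14 and -2.28. These were the only members past 2-fold, higher in T2DM beside 5.09% of all genes and lower in T1DM beside 4.78%. Because the models lay on either side of CT, the limma estimates for diabetic against CT Ly6C-low MCs were near 0, at -0.05 for S100a8 and 0.04 for S100a9 (adjusted p 1.00 each).

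S100a4 in Ly6C-low MCs showed the same order on a smaller scale, with 7.42 in T2DM, 6.38 and 6.47 in CT, and 5.99 in T1DM. T2DM was 0.99 above the CT mean and T1DM at -0.43. S100a13 read below both CT libraries in both models, at 2.51 in T1DM and 2.33 in T2DM against 3.19 and 2.97, and its diabetic log2FC of -0.66 had an unadjusted p of 0.0446 (limma adjusted p 1.00). S100a6 was likewise below CT in both, at 6.95 and 7.22. S100a10 was 0.15 above the CT mean in T1DM and at -0.42 in T2DM, and S100a11 was between the CT libraries in T1DM and 0.26 above their mean in T2DM.

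**Figure D3:**
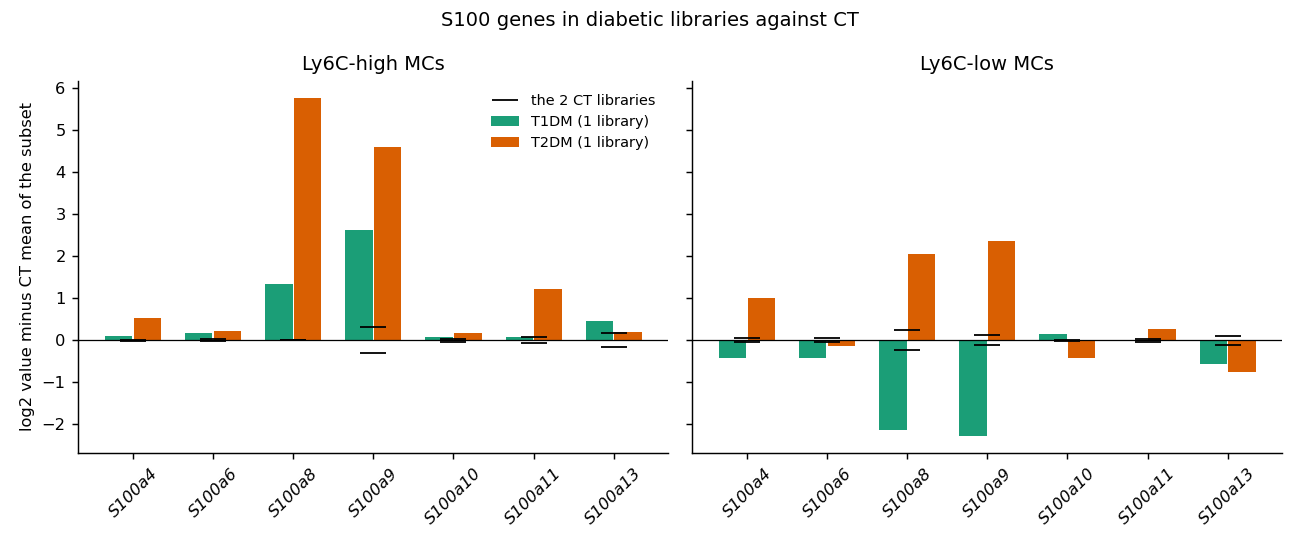
Log2 value of the T1DM library (green bars) and the T2DM library (orange bars) minus the CT mean of the same subset (y axis) for each S100 gene (x axis), in Ly6C-high MCs on the left and Ly6C-low MCs on the right, with black lines at the 2 CT libraries. S100a8 and S100a9 reach 5.76 and 4.60 in T2DM Ly6C-high MCs and lie on opposite sides of 0 in T1DM and T2DM Ly6C-low MCs.

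Set against each other, the T2DM library read past 2-fold above the T1DM library for S100a8 (4.41), S100a9 (1.97) and S100a11 (1.14) in Ly6C-high MCs, where 8.46% of all genes did. In Ly6C-low MCs it did so for S100a9 (4.64), S100a8 (4.18) and S100a4 (1.43), where 7.29% of all genes did. Both of these sets were run on 1 type of sequencer.

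Some markers of other cells moved with calprotectin in T2DM and in T1DM Ly6C-high MCs. Neutrophils are rich in S100a8 and S100a9, and the sort removed Ly6G+ cells. Of 11 neutrophil markers, 8 were among the measured genes, and Ly6g, Elane and Stfa2l1 were not analysed here. Their linear values summed to 734 and 739.5 in CT Ly6C-high MCs, 745.2 in their T1DM and 1257 in their T2DM counterparts. In Ly6C-low MCs the sums were 158.6 and 139.2 in CT, against 162.4 (T1DM) and 275.8 (T2DM). In Ly6C-high MCs the sums came mostly from Csf3r (8.66 to 9.36) and Cd177 (7.98 to 9.07), and no other marker read above 4.54. In Ly6C-low MCs they came mostly from Csf3r (6.86 to 7.51). Csf3r and Cd177 were both called higher in Ly6C-high MCs in the pooled test (log2FC 1.81 and 5.89), so the sums say little about the other markers. The median log2 difference of the 8 markers from CT was 1.25 in T2DM Ly6C-high and 1.62 in T2DM Ly6C-low MCs, where all 8 were higher, and 0.12 and -0.11 in T1DM. The markers were split in Ly6C-high MCs. In T2DM 6 of 8 were above the CT mean, 5 of them past 2-fold, such as Mpo at 3.83 against 0.17 and 1.40 in CT, while Retnlg was past 2-fold lower at -1.55 against 1.98 and 1.46 and Cxcr2 read 2.79 against 3.07 and 2.81. In T1DM 5 of 8 were above the CT mean and 3 past 2-fold. These were Retnlg (3.87), Ngp (2.89 against 1.53 and 1.72) and Mmp9 (2.41 against 1.11 and 0.48). Ltf, a gene of neutrophil granules from the alarmin list, read 2.71 in T1DM Ly6C-high MCs against -2.04 and -0.55 in CT. In the T2DM Ly6C-high library 5 of 8 classical-monocyte markers were past 2-fold higher than in CT (median 1.17). There 6 of 9 nonclassical markers were past 2-fold lower (median -1.33). Over all genes, 5.96% were past 2-fold higher and 7.89% lower in this library, and 5.11% were past 2-fold higher in T1DM Ly6C-high MCs. The part of these cell types in the S100a8 and S100a9 values was not tested.

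The CT and diabetic libraries also differed as sets. Exactly equal values of a gene occurred within the CT libraries (205 to 667 per pair) and within the diabetic libraries (151 to 332 per pair) and never between them. Averaged over both subsets, diabetic minus CT values had an SD of 0.272 over all genes, against 0.743 for T1DM minus T2DM. The diabetic minus CT mean took in more libraries on each side, which by itself narrows its SD. S100a8, at 1.75, and S100a9, at 1.83, stood far from 0 on the diabetic minus CT scale, with 0.0971% and 0.0728% of all genes further away. These means rest on T2DM, at 6.90 and 3.88 for S100a8 and 5.52 and 4.68 for S100a9. The T1DM libraries read above CT in Ly6C-high and below CT in Ly6C-low MCs. The shares are over genes of every level, while CT replicates of genes at low levels spread more widely. S100a11 (0.38), S100a4 (0.30), S100a13 (-0.16), S100a6 (-0.05) and S100a10 (-0.01) lay within the bulk of genes.

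The order of the 6 groups is given for each member against its larger CT replicate difference, a single value that may be technical, while each diabetic group is 1 library. S100a8 and S100a9 had the same order, from T2DM Ly6C-high through T2DM Ly6C-low, T1DM Ly6C-high, CT Ly6C-low and CT Ly6C-high to T1DM Ly6C-low. Each step was wider than the gene's own CT replicate difference, 0.46 for S100a8 and 0.62 for S100a9. Other genes at this level spread more widely, with a 90th percentile of 1.42 between CT Ly6C-high replicates. Only the S100a8 steps from T2DM Ly6C-high to T2DM Ly6C-low (3.02) and from CT Ly6C-high to T1DM Ly6C-low (1.45) were above 1.42. The other steps lay under it. Among them were those of S100a8 from T1DM Ly6C-high to CT Ly6C-low (0.65) and on to CT Ly6C-high (0.70). So were those of S100a9 from CT Ly6C-low to CT Ly6C-high (1.39) and on to T1DM Ly6C-low (0.89). S100a4 ran from T2DM through T1DM to CT in Ly6C-high and from T2DM through CT to T1DM in Ly6C-low MCs, each step wider than its CT replicate difference of 0.09. For S100a11, T1DM and CT did not differ beyond that spread in either subset. For S100a13 the 3 Ly6C-high groups did not differ between neighbours beyond the CT spread of 0.34, nor did T1DM and T2DM Ly6C-low. S100a6 did not separate T2DM from T1DM Ly6C-high MCs, nor S100a10 T1DM from CT Ly6C-high MCs.

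Read assignment bears on 3 members. Kallisto splits reads over transcripts by 31-base words, and in the GENCODE M21 transcripts 49.2% of the words of S100a4 also occur in Gm42674, a gene at the same locus, chosen here after its values were seen. Gm42674 held exactly the same value, 3.02, in 3 CT libraries of both subsets and read 5.30 in CT Ly6C-low replicate 1. In the diabetic libraries it read 5.23 (T1DM Ly6C-high), 5.80 (T2DM Ly6C-high), 2.46 (T1DM Ly6C-low) and 3.88 (T2DM Ly6C-low). With both genes added on the linear scale the Ly6C-high minus Ly6C-low difference was 1.99 for CT, 2.84 for T1DM and 1.84 for T2DM mice, and the T2DM minus CT difference in Ly6C-low MCs was 0.77. S100a11 shared 48.9% of its words, mainly with processed copies such as Gm12854, so its level is uncertain. S100a6, S100a8, S100a9 and S100a13 shared none and S100a10 0.424%. S100a13 overlaps S100a1 by 98 bases in RefSeq, and whether the counting used strand is not given in the sources used here.

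Of 10 further S100 genes listed, 3 were among the measured genes and none was called in either subset test. S100a1, a regulator of calcium handling in muscle, read 2.25 to 4.09 over the libraries, with a pooled log2FC of 0.63 (limma adjusted p 0.183). S100g, the calcium carrier calbindin-D9k, was lower in every Ly6C-high library (-1.85 to -0.69) than in every Ly6C-low library (-0.07 to 0.24), with a pooled log2FC of -1.30 (adjusted p 0.0276). These values are low, and for genes below 0 the CT Ly6C-high replicates differed by a median of 0.71. Both CT Ly6C-high libraries held exactly the same S100g value, -1.25. S100a2 was at 0.12.

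The intracellular partners of S100 proteins were described by a list of 10 genes, 4 of which rose in Ly6C-high MCs in the pooled test and in CT mice. They were Anxa1, the partner of S100A11 (pooled log2FC 1.98), Anxa5 (1.75), Anxa2, the partner of S100A10 (1.49), and Ahnak, a giant scaffold that binds the S100A10 and annexin A2 complex (1.00). Anxa1 read 8.11 to 8.96 in Ly6C-high and 6.15 to 6.83 in Ly6C-low libraries, without overlap. The others were not called, with Sugt1 at 0.81, Myh9, the non-muscle myosin bound by S100A4, at 0.19, Anxa6 at 0.08, Anxa11 at 0.07, Cacybp at 0.06 and S100pbp at -0.52. The list's median was 0.50.

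Among 6 receptors and co-receptors, Cd14, which hands ligands to TLR4, rose in the pooled test (log2FC 1.87, SE 0.20, limma adjusted p 0.000164) and Cd36, a scavenger receptor for lipids that also binds calprotectin with its fatty-acid cargo, fell by 2.80 on the log2 scale (SE 0.22). Cd14 read 4.33 to 4.77 in Ly6C-high and 2.42 to 2.96 in Ly6C-low libraries, and Cd36 4.88 to 5.63 and 7.62 to 8.54. In CT mice Cd36 was called and Cd14 was not (1.65, adjusted p 0.0243). Ager, which encodes RAGE, was at 0.73, Bsg at 0.66, Ly96, the TLR4 partner MD-2, at 0.54 and Tlr4 itself at 0.50, none of them called, and the list's median was 0.60.

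Of 9 other alarmin genes 6 were measured, and only the chromatin protein gene Hmgb2 was called, with a pooled log2FC of 1.14 and 1.16 in CT mice. Hmgb1 was at -0.18, Hmgn1 at -1.48, Ltf, encoding lactoferrin, at -0.26, Hspa1a at 0.56 and Hspa1b at -0.61, and the list's median was -0.22. Among 6 transcription factor genes of the myeloid lineage, Cebpa (2.62), Cebpd (2.20) and Cebpe (2.07) rose in the pooled test, while Spi1, encoding PU.1, was at 0.98, Cebpb at 0.55 and Stat3 at 0.35. In CT mice Cebpa, Cebpd and Spi1 (1.06) were called. The median was 1.52, and no gene of these lists was called between diabetic and CT MCs or in the test of the difference between them.

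**Figure D4:**
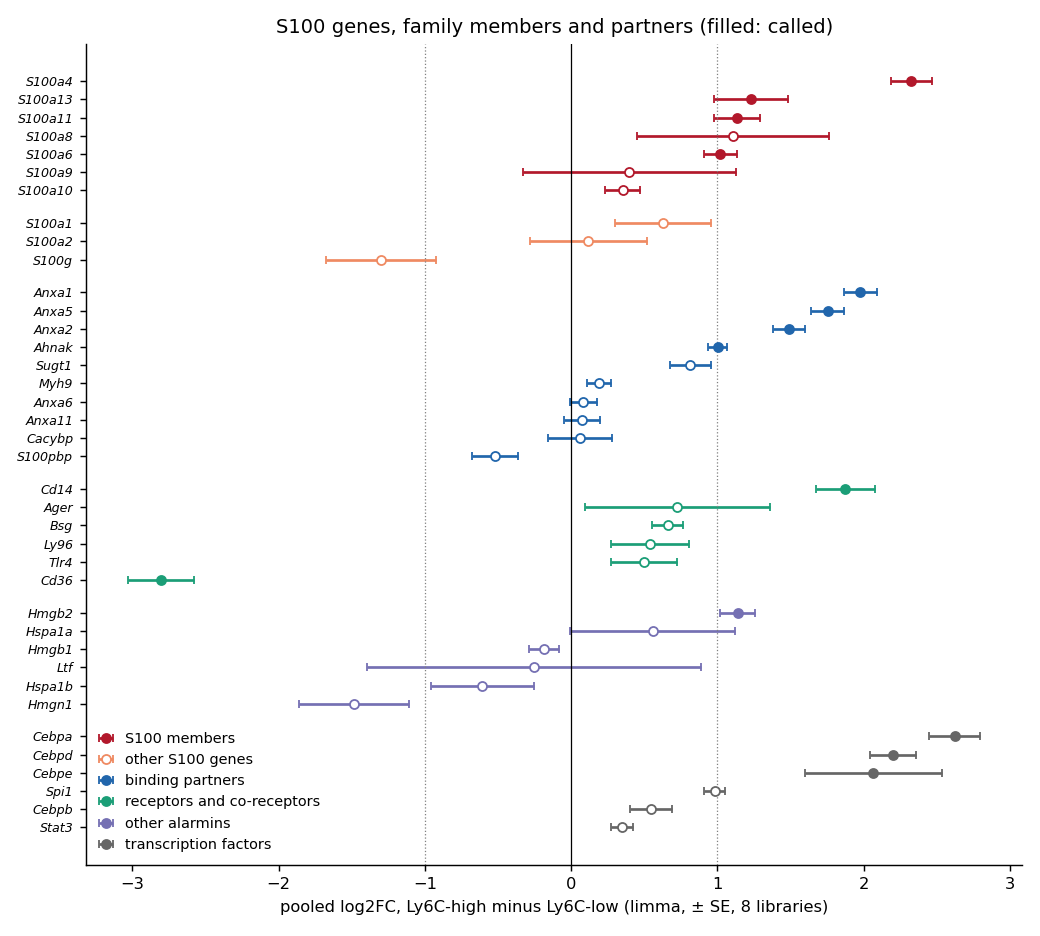
Pooled Ly6C-high minus Ly6C-low log2FC (x axis, limma estimate ± SE over 8 libraries) of the S100 members, other S100 genes, binding partners, receptors, other alarmins and transcription factors (y axis, coloured by list), filled where called, with dotted lines at 2-fold. S100a4 is the highest S100 gene at 2.33, Cebpa the highest of all at 2.62, and Cd36 the lowest at -2.80.

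For each member the most alike profiles over the 8 libraries were sought among 5213 genes with a mean of at least 5, as the smallest root mean square difference after each gene's mean was subtracted. S100a4 was closest to Mpeg1, encoding the pore-forming protein perforin-2 (0.20), Abca9 (0.22) and Cebpa (0.22), against its own spread of 1.23. Mpeg1 read 11.67 and 11.69 in CT Ly6C-high, 9.56 and 9.55 in CT Ly6C-low, 11.59 and 9.31 in T1DM and 12.13 and 10.13 in T2DM MCs, the same order of groups in Ly6C-low MCs as S100a4. S100a6 was closest to Fam174a (0.08), Cox6c (0.10) and Psma7 (0.10), S100a11 to Flot1 (0.18), Ppt1 (0.18) and Sorl1 (0.18), S100a13 to Apaf1 (0.19), Raph1 (0.19) and Psma7 (0.21), and S100a10 to Prkar1a (0.07), Chmp1b (0.07) and Pik3r5 (0.08).

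S100a8 and S100a9 had no close neighbour among these genes. Both read under 5 outside the T2DM Ly6C-high library, so genes of a mean as low as theirs were not searched. The nearest to both was Tpm3-rs7, at 0.94 from S100a8, whose own spread was 2.05, and at 1.05 from S100a9, whose spread was 1.81. Fpr2, the formyl peptide receptor 2 gene, was at 1.27 and 1.37, and Gm10800 was at 1.24 from S100a9. Fpr2 read 7.44 and 5.72 in the T2DM libraries and 4.09 to 5.41 in the other 6, so that it shared the high T2DM values but not the T1DM Ly6C-high value above CT. Members were left out of these searches.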

How the data were processed

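Libraries were assigned to groups by the sample labels. The authors quantified reads with Kallisto (0.45, mm10), used tximport (version 1.12.3, under R version 3.6.1) to sum transcripts to genes, and deposited log2 expression values of 16486 genes. Their scaling between libraries, low-value filter, length correction and any adjustment between CT and diabetic libraries are not given in the sources used here. The values hold no counts, and only the CT groups have replicates. The error of the pooled and diabetic tests also took in differences between the mouse models. The study describes more libraries than the 8 analysed here.

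The members, gene lists, marker lists of 11 cell types and tests were chosen with earlier results of these data known. Here limma (3.58.1, eBayes with trend, R 4.3.3) was fitted to all genes without further normalization, with two-sided p-values adjusted by Benjamini-Hochberg over all genes, and called at an adjusted p under 0.01 and an absolute log2FC above 1, the study's criteria. The CT test used 4 libraries, the pooled test 8 with mouse group as covariate, and the diabetic tests 8 with a mean per subset and status. Single diabetic libraries were compared without a test. Named genes were the members, the listed genes and, for each member, the 3 genes of most similar profile, of which 1 is not reported here. The fits were tested on simulated data. Coordinates and promoters are from RefSeq (GRCm38.p6). Alternatives were a filter at a mean of 1, adding 1 before log2, quantile normalization, scaling to the same linear sum, eBayes without trend, an adjusted p limit of 0.05, a replicate block, and omitting single CT libraries or both libraries of a model. Python 3.11.15 was used for tables and plots.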

Additional observations from a re-analysis of the deposited data

Results flagged for a closer look

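Several members differed between subsets or models in the direction or size of their diabetic difference. Where every library of one group moved one way and every library of the other moved the opposite way, the difference between the groups was not tested, and with 1 diabetic library on a side it has no replicate check.

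In T1DM minus CT, Ly6C-high and Ly6C-low MCs moved in opposite directions for S100a9, by 4.91 on the log2 scale between the subsets, for S100a8 by 3.49, for S100a13 by 1.03, for S100a6 by 0.59 and for S100a4 by 0.54. In T2DM minus CT they did so for S100a13 by 0.94, for S100a10 by 0.58 and for S100a6 by 0.37. In Ly6C-low MCs the T2DM and T1DM libraries moved in opposite directions from CT, and T2DM stood above T1DM by 4.64 for S100a9, 4.18 for S100a8 and 1.43 for S100a4, while for S100a10 T2DM minus T1DM was -0.57. These differences were not tested, and the share of all genes with opposite directions was not counted. Only S100a8 and S100a9 were past 2-fold both ways in T1DM, higher in Ly6C-high and lower in Ly6C-low MCs, beside 1.12% of all genes. Averaged over both subsets, diabetic minus CT was near 0 for S100a13 (-0.16), S100a6 (-0.05) and S100a10 (-0.01). With such a mean, diabetic values above CT must come with others below it. Opposite directions of these genes therefore add little to that mean. Over all genes this mean also had a smaller SD (0.272) than T1DM minus T2DM (0.743), though it took in more libraries on each side. Between diabetic and CT mice the Ly6C-high minus Ly6C-low difference had opposite signs in every model for S100a8 and S100a9, by 3.60 (limma adjusted p 0.854) and 3.57 (limma adjusted p 0.826), and neither passed the test of that difference. No group holds enough libraries for a search for outlying libraries.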

How the results depend on the processing

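Each result was recomputed under the alternatives, 760 values in all. Of the results for single members, 587 kept their direction and side of the threshold, or moved by less than the replicate spread, 21 lost the call, 41 moved and 16 changed direction. In the CT test the count of called members went from 1 to 0 with eBayes without trend, with the replicate block and with each CT library left out (0 to 0), where no gene at all was called. With 1 library left in an arm, that library is assumed to vary like the other group. Over all genes the CT test called 581 genes, 1089 after the filter and 1936 at an adjusted p limit of 0.05. In the pooled test the count of members went from 4 to 2 with quantile normalization, 2 with eBayes without trend, 2 without the T1DM libraries, 1 without the T2DM libraries and 1 with the same linear sum for every library, which also turned 886 higher and 1115 lower calls over all genes into 503 and 1769. The cause of these losses was not tested. The counts of members past 2-fold in single diabetic libraries and the absence of member calls in the 3 diabetic tests kept within 1.5 times under every alternative run.

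Changes of direction concerned values that were not called. The CT difference of S100a10 became -0.0577 with the same linear sum, and the pooled difference of S100a9 became -0.64 without the T1DM libraries. For diabetic against CT Ly6C-low MCs, S100a8 became 0.22 with 1 added, 0.0123 with quantile normalization, 0.0652 with the replicate block, between -0.2841 and 0.179 with 1 CT library left out (0.179 without CT Ly6C-low replicate 2) and 2.04 without the T1DM libraries. S100a9 ran from -0.0817 without CT Ly6C-low replicate 2 to 0.1713 without replicate 1 of that group and became -2.28 without the T2DM libraries, without which S100a4 became -0.43, S100a10 0.15 and S100a11 -0.0043. For the difference of the subset difference, S100a4 became -0.0259 with quantile normalization, ran from -0.0115 without CT Ly6C-low replicate 2 to 0.0795 without replicate 1 of that group, and became -0.47 without the T1DM libraries, and S100a10 became -0.081 without the T2DM libraries.

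Replicate numbers did not pair the CT libraries, since the deviations of same-numbered libraries from their group means correlated at 0.00892 across genes. The replicate block took the calls of all genes in the CT test from 581 to 0 and left 3 of the 4 pooled member calls, S100a13 being lost at an adjusted p of 0.0114 (limma). Depth is unknown, and single diabetic libraries have no replicate error.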

Other observations

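Markers of further cell types had linear sums that can be set beside the S100 values. Those of 6 NK-cell markers were 23.68 to 108.4 in Ly6C-high and 160.4 to 770 in Ly6C-low libraries, lowest in T2DM in both subsets. Those of 8 T-cell markers were 19.8 to 31.78 and 47.24 to 55.34. The 4 erythroid markers summed to 10260 to 22780 in Ly6C-high and 10290 to 18950 in Ly6C-low libraries, highest in T1DM in both, and the 5 platelet markers to 197.7 to 736.7 and 234.1 to 799. Of 5 dendritic-cell markers 4 were measured, at 58.14 to 77.61 and 78 to 123.3, and of 4 eosinophil markers 2, at 2.52 to 6.764 and 2.645 to 15.17. The 8 classical-monocyte markers summed to 11280 to 28820 and 1119 to 1477, and the 9 nonclassical markers to 1367 to 2711 and 2881 to 3889. The part of any of these cells in the S100 values was not tested.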
